A study of Mus musculus with 8 samples.

Results

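Molecular chaperones are the proteins that fold new polypeptides, hold unfolded ones and hand damaged ones to degradation, and the expression of their genes was compared here between 3 kinds of mouse embryonic stem (ES) cells. The genes were chosen by symbol from the probe annotation of the array: heat shock proteins of the Hspa, Hspb, Hspd, Hspe, Hsph and Hsp90 families, the Dnaja, Dnajb and Dnajc families, the Cct genes with Tcp1, the prefoldins, Bag1 to Bag6, Calr and Canx. A total of 62 genes with 75 probes carried such a name, and 60 of them had a probe that 2 or more of the 8 arrays detected at p under 0.01, out of 8221 named genes that passed this filter. The 2 genes that did not pass were Dnajc11 and Hspa12a, each detected on 0 arrays at lowest detection p-values of 0.0175 and 0.0238. Just inside the filter were Dnajb4, detected on 5 arrays, and Bag2, Dnaja4, Dnajc12 and Pfdn1, detected on 3. For 11 genes with several passing probes the brightest probe was used.

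All cells were of the strain cross B6129F1. Androgenetic ES cells, whose genome comes from the father alone, were labelled female and male with both X and Y chromosomes and gave 3 arrays, from passages 6, 7 and 8 (replicates 1, 2 and 3). Parthenogenetic ES cells, whose genome comes from the mother alone, were labelled female and gave 2 arrays, from passages 6 and 7. Fertilized ES cells, labelled like the androgenetic ones for sex and chromosomes, gave 3 arrays, from passages 6, 7 and 8, and served as the control for both. The lines were derived from blastocysts, and the labels do not state whether a passage is a line of its own, and the p-values below reflect variation from passage to passage. All levels below are log2 signals of a probe, differences are between group means on that log2 scale with the moderated standard error (SE), and a gene was called higher or lower at an adjusted p under 0.05 (limma, Benjamini-Hochberg over 12300 probes). Levels of different probes are not comparable with each other.

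Chaperones work in linked systems. HSP70 proteins bind short hydrophobic stretches in an ATP-driven cycle, DNAJ proteins (also called HSP40) bring them their clients and start ATP hydrolysis, and BAG and HSP110 proteins release the nucleotide. HSP90 finishes signalling proteins such as kinases and receptors, small heat shock proteins hold unfolded chains without ATP, and the ring-shaped TRiC complex, fed by prefoldin, folds actin and tubulin. The endoplasmic reticulum (ER) and the mitochondria each have chaperones of their own. Heat shock factors bind repeated GAA units in many cytosolic chaperone promoters, and ER chaperone genes are known for the ER stress element, to which factors of the unfolded protein response bind.

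Promoter windows from RefSeq (assembly GRCm38.p6, 250 bases before to 50 after each start) were found for 48 of the 60 genes, and those that bear on the results below are shown. They were searched on both strands for the heat shock element GAANNTTC, for its longer form of 3 alternating GAA and TTC units spaced by 2 bases, and for the ER stress element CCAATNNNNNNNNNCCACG. The stretch between the starts of Hspd1 and Hspe1, which encode the mitochondrial chaperonin and its lid, is shown because these genes face away from each other and share it. Their starts lie 216 bases apart, at chr1:55087932 on the minus strand and chr1:55088148 on the plus strand, and this is 1 of 2 RefSeq starts of Hspd1. Capitals mark a run of GAA and TTC units, with overlapping matches to the longer element (plus strand, chr1:55087933-55088147).
Hspd1 and Hspe1, between the starts: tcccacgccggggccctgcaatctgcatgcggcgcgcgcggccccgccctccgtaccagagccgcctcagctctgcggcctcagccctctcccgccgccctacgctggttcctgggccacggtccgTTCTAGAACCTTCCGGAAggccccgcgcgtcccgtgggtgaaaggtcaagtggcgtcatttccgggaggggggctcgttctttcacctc

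The 4 genes with an exact ER stress element are shown for the contrast in their values, with the element in capitals, and each sequence runs 5′ to 3′ on the strand of its gene up to the base before the start. They are Hspa5 (chr2:34771840-34772089, plus strand), Hsp90b1 (chr10:86705445-86705694, minus), Calr (chr8:84846932-84847181, minus) and Dnajc3 (chr14:118937682-118937931, plus).
Hspa5: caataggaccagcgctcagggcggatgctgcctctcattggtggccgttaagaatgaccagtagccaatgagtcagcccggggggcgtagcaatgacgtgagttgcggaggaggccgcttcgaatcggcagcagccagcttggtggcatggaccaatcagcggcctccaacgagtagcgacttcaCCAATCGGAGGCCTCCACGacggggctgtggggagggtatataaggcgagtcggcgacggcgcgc
Hsp90b1: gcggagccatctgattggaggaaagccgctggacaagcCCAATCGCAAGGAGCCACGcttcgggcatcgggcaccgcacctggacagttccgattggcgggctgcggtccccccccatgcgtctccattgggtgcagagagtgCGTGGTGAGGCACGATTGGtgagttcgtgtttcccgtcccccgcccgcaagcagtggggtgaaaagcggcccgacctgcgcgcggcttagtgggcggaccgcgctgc
Calr: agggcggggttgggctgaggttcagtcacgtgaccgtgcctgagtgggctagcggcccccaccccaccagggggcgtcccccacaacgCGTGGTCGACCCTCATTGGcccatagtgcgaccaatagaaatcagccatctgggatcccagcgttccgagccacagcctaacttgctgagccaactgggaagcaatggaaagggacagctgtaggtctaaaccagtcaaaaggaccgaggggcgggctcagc
Dnajc3: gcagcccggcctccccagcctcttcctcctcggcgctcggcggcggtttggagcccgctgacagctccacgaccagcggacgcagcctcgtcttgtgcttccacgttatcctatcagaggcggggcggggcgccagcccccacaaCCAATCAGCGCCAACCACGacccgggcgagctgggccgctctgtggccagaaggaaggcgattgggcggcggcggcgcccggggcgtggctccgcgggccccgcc
Hsp90b1 had 2 matches, 1 on each strand.

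Hspb1, a small heat shock protein gene that was higher in both uniparental kinds of cells, is shown with its 2 matches to the shorter heat shock element in capitals (chr5:135887669-135887918, plus strand).
Hspb1: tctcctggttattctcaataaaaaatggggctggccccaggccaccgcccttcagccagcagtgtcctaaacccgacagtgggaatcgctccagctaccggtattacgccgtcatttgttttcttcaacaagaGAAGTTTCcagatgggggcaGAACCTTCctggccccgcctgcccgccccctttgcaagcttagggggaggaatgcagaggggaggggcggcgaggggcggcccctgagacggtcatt
The shorter element was in windows of 11 of the 48 chaperone genes (22.9%) and 6.96% of the genes of the probe annotation, and the longer form in 4 (8.33%) against 0.487%. Bag3 and Hspb8 carried the match GAAGTTTC after their start, at positions 43 and 3 counted with the start as 1. The ER stress element was in 8.33% of the chaperone genes and 0.153% of the annotated genes, 11 in all, whereas the CCAAT box alone was in 43.8% and 44.2%. These matches are letters in a window and do not show binding.

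The arrays were even in quality, with median signals of 127 to 167 and 41.3% to 43.5% of probes detected. Their number limits the precision, and the median SD within groups was 0.127. The spread was unequal, with median SDs of 0.069 on androgenetic and 0.140 on fertilized arrays for all named genes. For the chaperones they were 0.058 and 0.177, while the fit used 1 estimate of spread for all groups. Markers of other cell types moved with the groups, in both uniparental kinds, beside the chaperone differences given below. Summed signals of 12 ES cell markers were 41697.9 to 44305.7 on androgenetic arrays, 141307 to 142193 on parthenogenetic and 123687 to 129845 on fertilized arrays, and Fgf4 was not detected on androgenetic arrays. The 7 measured trophectoderm markers (of 10) summed to 80832 to 86586 on androgenetic, 23875 to 23892 on parthenogenetic and 20525 to 22833 on fertilized arrays. The 6 measured fibroblast markers (of 16) summed to 6577 to 6827, 2698 to 2869 and 1820 to 2109 in the same order, and 4 measured primitive endoderm markers (of 8) to 2778 to 2987, 414 to 480 and 1413 to 1628. In parthenogenetic against fertilized cells, primitive endoderm sums were thus lower, and ES cell, trophectoderm and fibroblast sums higher. Single markers were mixed there. Of the 6 fibroblast markers 2 were called higher and 2 lower, and of the 7 trophectoderm markers 3 and 2. Of the 12 ES cell markers 8 were higher and 1 lower, and of the 4 primitive endoderm markers 0 and 3. In androgenetic against fertilized cells 11 ES cell markers were lower and 1 higher, and 5 fibroblast markers higher and 1 lower. Of the primitive endoderm markers 3 were higher and 1 lower there, and of the trophectoderm markers 6 and 0. Eomes was undetected in parthenogenetic and fertilized cells, Col1a1 in fertilized, Pdgfra and Gata6 in parthenogenetic and Sox7 in androgenetic cells. Their part in the chaperone differences was not tested. In such bulk RNA, fewer cells of a type and less RNA per cell cannot be told apart.

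Androgenetic cells differed from fertilized cells in many chaperone genes, in both directions and by small amounts. Of the 60 genes 39 were called (65%, against 74.7% of all named genes), 19 higher and 20 lower (35.4% and 39.3% of all named genes). A 2-fold difference was reached by 6 higher and 5 lower genes (13.2% and 15% of all named genes), or 5 and 5 with genes undetected in 1 group at their bound, which left the class medians below as they are. Among the 52 chaperone genes detected on all 8 arrays 15 were higher and 18 lower. The median difference was -0.08 for the chaperones and -0.05 for all named genes, and the median absolute difference 0.40 and 0.58. The 2 groups of arrays did not overlap for 38 chaperone genes, against 77.9% of all named genes. The count of chaperones called was thus no higher than that of genes at large, and the description below is of which classes moved which way.

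Parthenogenetic cells differed from fertilized cells in few chaperone genes. A total of 15 were called (25%, against 40.6% of all named genes), 8 higher and 7 lower (20.3% of all named genes in each direction). Only Dnajb13 was higher and only Hspa2 lower by at least 2-fold (3.27% and 2.24% of all named genes). The median absolute difference was 0.13 for chaperones and 0.27 for all named genes. For Bag2 and Dnajc12, called lower, no array of either group detected the probe, so their direction rests on signals too low to be detected. The arrays did not overlap for 26 chaperone genes (59.6% of all named genes). Without parthenogenetic replicate 1 the counts were 4 higher and 3 lower, and without replicate 2 they were 5 and 4.

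**Figure D1:**
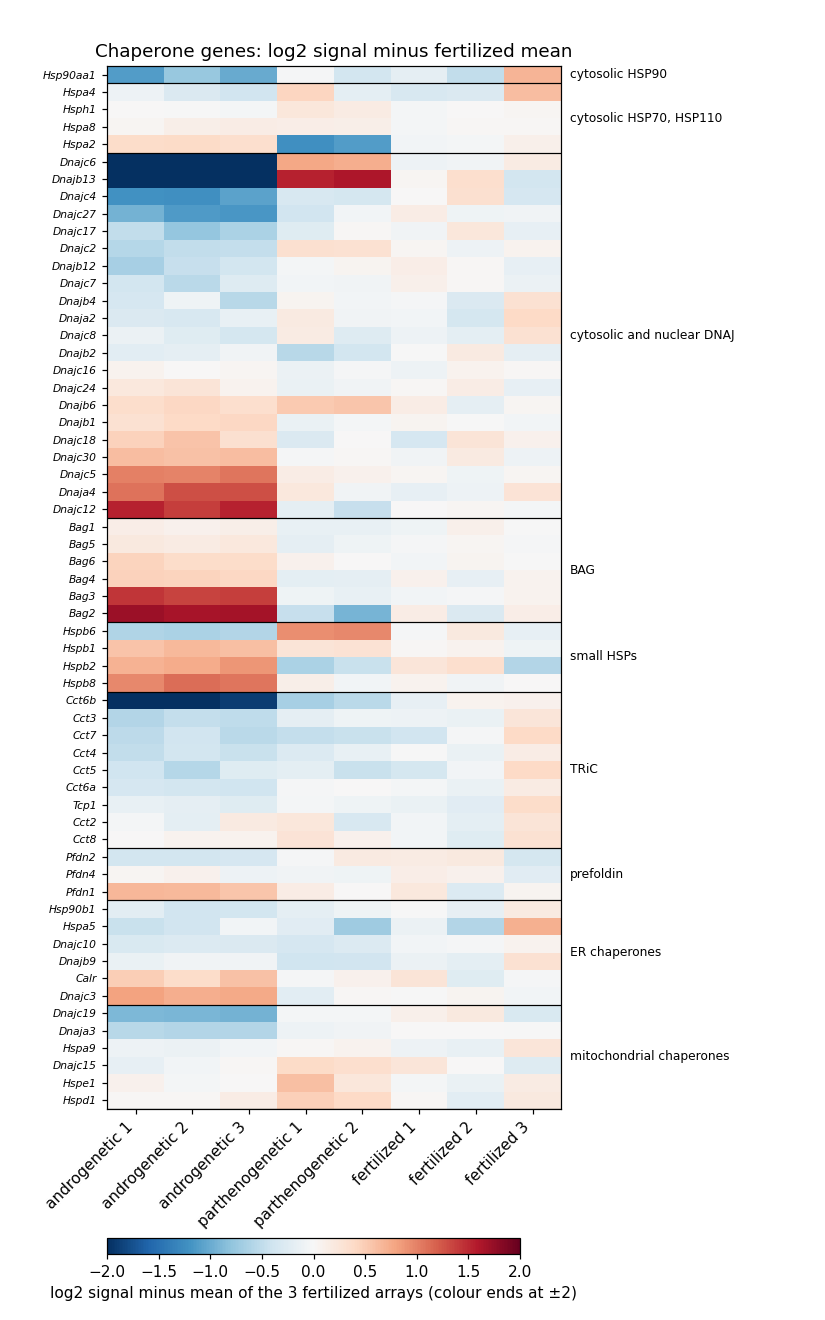
Log2 signal of each of the 60 chaperone genes on each array, as the difference from the mean of that gene's fertilized arrays, grouped by class. Androgenetic arrays show 19 genes called higher and 20 lower, and the parthenogenetic arrays stay nearer the fertilized ones, with 8 and 7.

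The HSP70 and HSP90 core showed its largest parthenogenetic difference in Hspa2, an HSP70 best known from the testis. Hspa2 read 10.52, 10.54 and 10.49 on androgenetic arrays, 8.93 and 9.04 on parthenogenetic arrays and 10.11, 10.12 and 10.25 on fertilized arrays. No 2 groups overlapped, with parthenogenetic arrays lowest. Hspa2 was 2.25-fold lower in parthenogenetic than in fertilized cells (-1.17 ± 0.083 SE, adjusted p = 2.37e-05) and 1.28-fold higher in androgenetic cells (0.36 ± 0.075, adjusted p = 0.00210). A second, dimmer Hspa2 probe differed the same way, by -0.72 and 0.46. The constitutive HSP70 gene Hspa8 read 15.76, 15.84 and 15.86 on androgenetic, 15.85 and 15.83 on parthenogenetic and 15.69, 15.73 and 15.73 on fertilized arrays. Neither comparison with fertilized cells was called for Hspa8 (0.10 ± 0.067 and 0.12 ± 0.075 SE). A second, dimmer Hspa8 probe was not called there either (0.23 and -0.20). That probe was called higher in androgenetic than in parthenogenetic cells (0.43 ± 0.15, adjusted p = 0.0262), where the probe used was not called (-0.018).

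Of the HSP110 genes, whose proteins act as nucleotide exchange factors of HSP70, Hsph1 read 12.06, 12.05 and 12.01 on androgenetic, 12.27 and 12.22 on parthenogenetic and 12.01, 12.06 and 12.09 on fertilized arrays. Hsph1 was not called in either comparison with fertilized cells (-0.02 ± 0.066 and 0.19 ± 0.074 SE, adjusted p = 0.835 and 0.0689). Hspa4 read 9.97, 9.78 and 9.68, then 10.49 and 9.87, then 9.74, 9.77 and 10.69 in the same order. Its groups overlapped and it was not called (-0.26 ± 0.26 and 0.11 ± 0.29 SE).

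Both measured HSP90 genes were lower in androgenetic cells. Hsp90aa1, the stress-inducible cytosolic form, read 8.32, 8.68 and 8.43 on androgenetic, 9.43 and 9.08 on parthenogenetic and 9.27, 8.95 and 10.12 on fertilized arrays. Androgenetic arrays lay below all others, and fertilized replicate 3 lay well above the other fertilized arrays. The difference from fertilized cells was -0.97 ± 0.27 SE (1.95-fold, adjusted p = 0.00965), and without fertilized replicate 3 it was -0.63. Hsp90b1, the ER form, is given with the ER chaperones. Neither HSP90 gene was called in parthenogenetic against fertilized cells (-0.19 ± 0.30 and -0.13 ± 0.11 SE).

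Of 6 BAG genes 5 were called higher in androgenetic than in fertilized cells and 0 lower (median 0.42, against 35.4% higher among all named genes). Bag2, 1 of the 5, passed the detection filter through androgenetic arrays alone, and among the 5 BAG genes detected on all 8 arrays 4 were called higher (median 0.39). Bag3, whose protein works with HSPB8 to send aggregated proteins to autophagy, read 12.85, 12.77 and 12.81 on androgenetic arrays, 11.34 and 11.29 on parthenogenetic arrays and 11.38, 11.40 and 11.50 on fertilized arrays. The androgenetic arrays lay more than 1 log2 unit above the rest. Bag3 was 2.61-fold higher (1.39 ± 0.071 SE, adjusted p = 2.88e-07). Bag2, an inhibitor of the ubiquitin ligase CHIP, read 8.08, 8.03 and 8.04 on androgenetic arrays and was detected on no other array, where it read 5.92 and 5.45 in parthenogenetic and 6.54, 6.09 and 6.52 in fertilized cells. It was at least 2.56-fold higher than in fertilized cells, by a bound taken against the signal at which detection begins. Bag4, Bag6 and Bag5 were higher by 0.45 ± 0.085, 0.39 ± 0.071 and 0.19 ± 0.067 SE. The call for Bag5 was lost without androgenetic replicate 1, 2 or 3 or fertilized replicate 1 (adjusted p up to 0.0906). Bag1 was not called (0.11 ± 0.074).

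Small heat shock proteins split. Hspb8, the partner of BAG3, read 10.73, 10.89 and 10.83 on androgenetic arrays, 9.89 and 9.70 on parthenogenetic and 9.83, 9.69 and 9.77 on fertilized arrays. Androgenetic arrays stood apart from the rest, which overlapped. Hspb8 was 2.07-fold higher in androgenetic than in fertilized cells (1.05 ± 0.084 SE, adjusted p = 4.86e-06) and was not called in parthenogenetic cells (0.03 ± 0.094). Hspb1, which binds unfolded proteins and actin filaments, read 13.77, 13.86 and 13.80 on androgenetic, 13.46 and 13.49 on parthenogenetic and 13.22, 13.27 and 13.11 on fertilized arrays. The 3 groups did not overlap. Hspb1 was 1.52-fold higher in androgenetic cells (0.61 ± 0.073, adjusted p = 6.43e-05) and 1.21-fold higher in parthenogenetic cells (0.28 ± 0.081, adjusted p = 0.0259). The latter call was lost without parthenogenetic replicate 1 or 2 (adjusted p up to 0.128) and, among other settings, under median centring and a fit of only the 2 groups compared (adjusted p up to 0.121).

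Hspb6, a small heat shock protein best known from muscle, went in opposite directions in the 2 uniparental kinds. It read 9.37, 9.33 and 9.38 on androgenetic arrays, 10.90 and 10.93 on parthenogenetic arrays and 9.94, 10.16 and 9.80 on fertilized arrays. The fertilized arrays lay between the other groups without overlap. Hspb6 was 1.93-fold higher in parthenogenetic cells (0.95 ± 0.11 SE, adjusted p = 0.000244) and 1.52-fold lower in androgenetic cells (-0.61 ± 0.096, adjusted p = 0.000408). Hspb2 read 8.13, 8.19 and 8.32 on androgenetic, 6.81 and 7.00 on parthenogenetic and 7.69, 7.78 and 6.85 on fertilized arrays. Fertilized replicate 3 read below the other 2 fertilized arrays and within the parthenogenetic range. Hspb2 was 1.71-fold higher in androgenetic than in fertilized cells (0.77 ± 0.22, adjusted p = 0.0109, or 0.48 without fertilized replicate 3). In parthenogenetic cells the difference of -0.53 ± 0.24 was not called (adjusted p = 0.116), and it was -0.83 and called without that array (adjusted p = 0.000624).

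**Figure D2:**
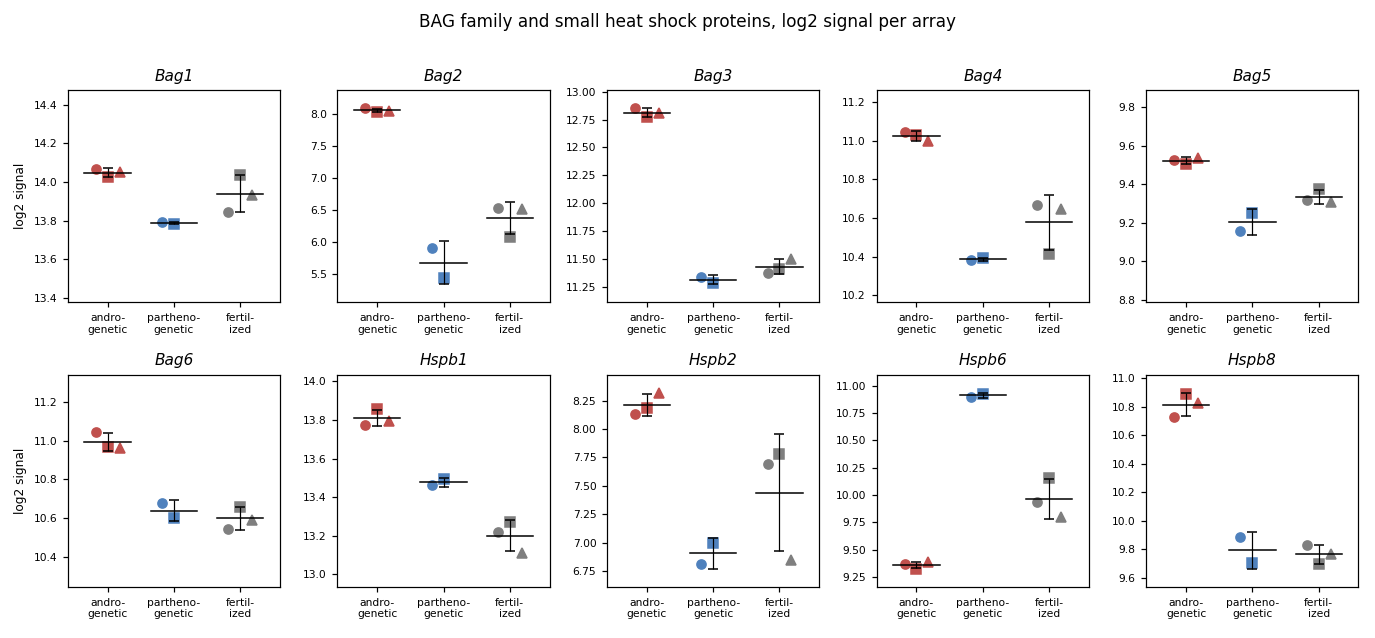
Log2 signal per array of the 6 BAG genes and 4 small heat shock protein genes in androgenetic, parthenogenetic and fertilized ES cells. Circles, squares and triangles are replicates 1, 2 and 3, the line is the group mean and the bar its SD. Genes with androgenetic arrays above the rest include Bag2, Bag3, Hspb1, Hspb2 and Hspb8, and for Hspb6 they lie below the rest.

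Of 21 DNAJ genes outside the ER and mitochondrial lists 7 were called higher and 8 lower in androgenetic than in fertilized cells (median -0.24), 33.3% and 38.1% against 35.4% and 39.3% of all named genes. The 7 include Dnajb6, whose probes disagreed, and Dnajc12 and Dnaja4, detected on androgenetic arrays alone. Among the genes with a large decrease was Dnajc6, auxilin, which uncoats clathrin vesicles with HSP70. Dnajc6 read 8.26, 8.07 and 7.90 on androgenetic arrays, 11.10 and 11.05 on parthenogenetic arrays and 10.22, 10.25 and 10.49 on fertilized arrays. The groups did not overlap, and androgenetic arrays were lowest and parthenogenetic highest. It was 4.74-fold lower in androgenetic cells (-2.24 ± 0.11 SE, adjusted p = 2.54e-07) and 1.68-fold higher in parthenogenetic cells (0.75 ± 0.13, adjusted p = 0.00180). A second Dnajc6 probe differed by -2.35 and 0.69.

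Dnajb13, known from the axoneme of sperm tails and cilia, showed the same order of groups. It read 5.83, 5.94 and 5.91 on androgenetic arrays, where it was not detected, 9.65 and 9.73 on parthenogenetic arrays and 8.15, 8.45 and 7.74 on fertilized arrays. Every parthenogenetic array lay over 1 log2 unit above every fertilized array. Dnajb13 was 2.99-fold higher in parthenogenetic cells (1.58 ± 0.17 SE, adjusted p = 0.000207) and at least 2.71-fold lower in androgenetic than in fertilized cells. It passed the detection filter through the parthenogenetic and fertilized groups alone, which favours an androgenetic decrease.

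Dnajc12 and Dnaja4 were detected only on androgenetic arrays and so passed the detection filter through the group in which they were high, which favours a difference. Dnajc12, a co-chaperone of aromatic amino acid hydroxylases, read 7.95, 7.79 and 7.95 there, 6.23 and 5.96 on parthenogenetic and 6.42, 6.44 and 6.37 on fertilized arrays, and was at least 2.30-fold higher than in fertilized cells. Dnaja4, a cytosolic partner of HSP70, read 6.83, 7.04 and 7.03, then 5.96 and 5.68, then 5.58, 5.65 and 6.02 in the same order, and was at least 1.21-fold higher. The gene names used here cover only probes of the authors' log2 table, so further genes detected only in androgenetic cells can be missing. Dnajc5, the cysteine string protein of secretory vesicles, read 11.99, 11.99 and 12.06 on androgenetic arrays, 11.14 and 11.07 on parthenogenetic and 11.03, 10.90 and 11.03 on fertilized arrays. Androgenetic arrays were apart from both other groups, and Dnajc5 was 2.03-fold higher than in fertilized cells (1.02 ± 0.072 SE, adjusted p = 2.15e-06).

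Smaller increases in androgenetic cells were those of Dnajc30 (0.60), Dnajc18 (0.45), Dnajb1 (0.37), the heat-inducible HSP40, and Dnajb6 (0.37), which suppresses aggregation. Dnajb6 was measured by 2 probes with opposite calls, the dimmer one at -0.72 ± 0.089 SE (adjusted p = 7.90e-05), so no direction is given for the gene. The call for Dnajc18 was lost without androgenetic replicate 1 or 2 or fertilized replicate 1 (adjusted p up to 0.0912).

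Decreases of at least 2-fold were also found in Dnajc4 and Dnajc27. Dnajc4 read 7.61, 7.61 and 7.75 on androgenetic, 8.51 and 8.48 on parthenogenetic and 8.84, 9.15 and 8.49 on fertilized arrays, and differed by -1.17 ± 0.15 SE from fertilized cells (adjusted p = 9.72e-05). Dnajc27, a small GTPase with a J domain, read 7.05, 6.87 and 6.83 on androgenetic, 7.61 and 7.94 on parthenogenetic and 8.14, 7.92 and 7.93 on fertilized arrays. Its androgenetic arrays lay below all others, with a difference of -1.08 ± 0.11 from fertilized cells (adjusted p = 2.94e-05). The ribosome-associated Dnajc2, the splicing-linked Dnajc17, the ER membrane protein Dnajb12 and the TPR-containing Dnajc7 were lower by smaller amounts, at -0.51, -0.64, -0.50 and -0.39.

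In parthenogenetic against fertilized cells the further calls in this class were Dnajb6 and Dnajc2, both higher, and Dnajb2, lower. The lower call for Dnajc12, undetected in both groups, was lost in 5 of the 8 fits that left out 1 array. Dnajb6 read 11.93 and 11.96 on parthenogenetic and 11.55, 11.22 and 11.44 on fertilized arrays without overlap, and was 1.46-fold higher (0.54 ± 0.10 SE, adjusted p = 0.00368), while its dimmer probe was not called (0.20). Dnajb2, which delivers clients to the proteasome, read 8.66 and 8.85 on parthenogenetic, 9.22, 9.41 and 9.04 on fertilized and 9.02, 9.04 and 9.15 on androgenetic arrays. It was lower by a difference of -0.46 ± 0.12 (adjusted p = 0.0142), a call lost without parthenogenetic replicate 1 (-0.37, adjusted p = 0.114). The call for Dnajc2 (0.32 ± 0.083) was lost without either parthenogenetic array (0.31 to 0.33). A second, dimmer Dnajc2 probe was not called (0.061, adjusted p = 0.721).

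**Figure D3:**
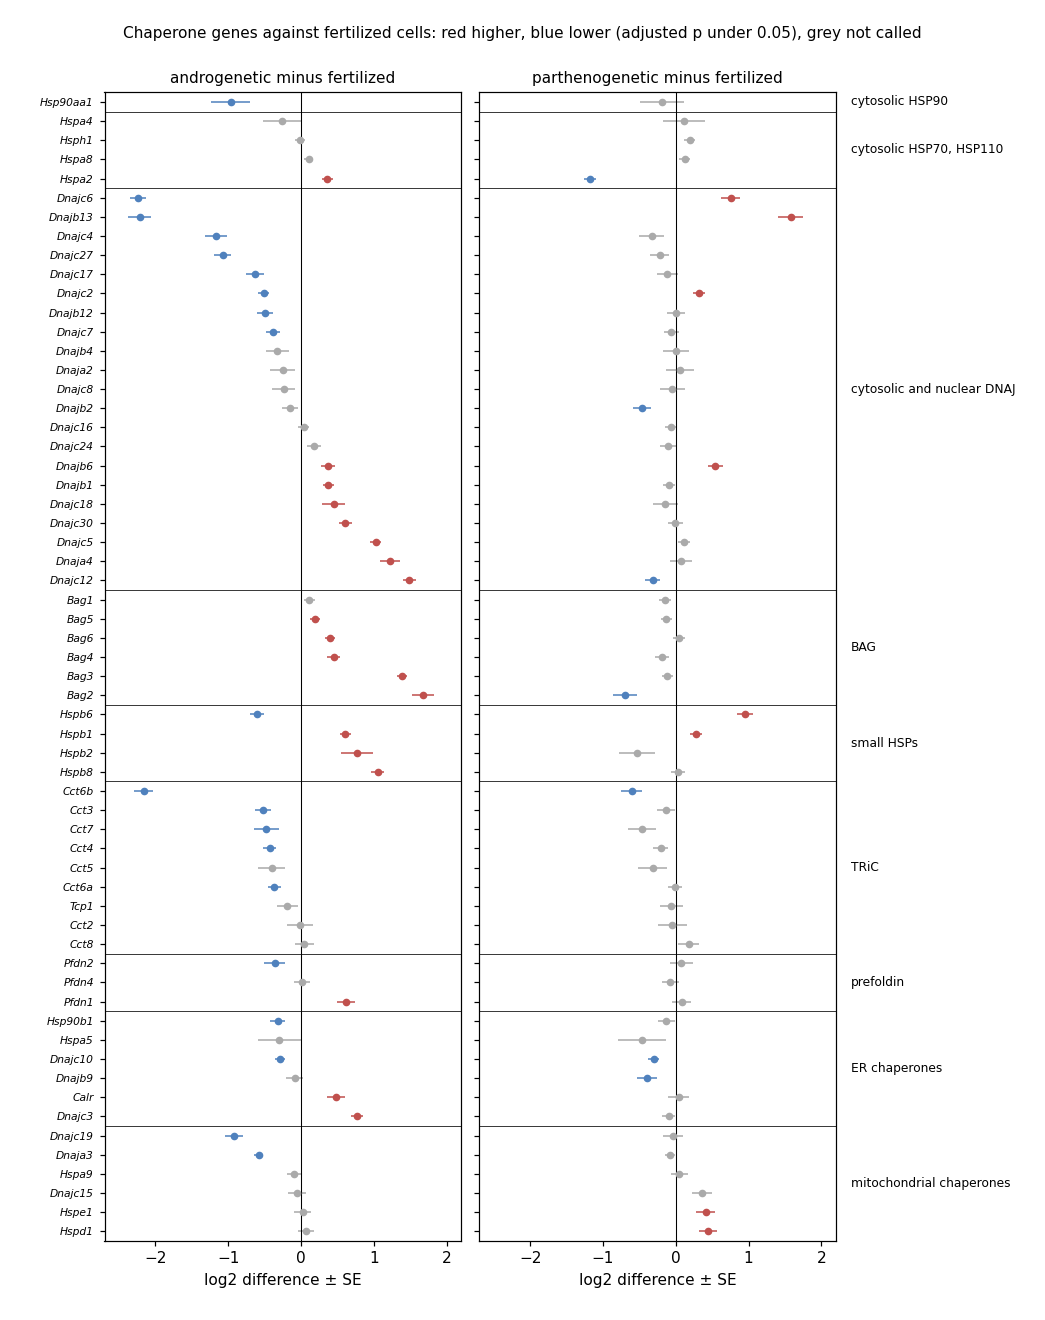
Difference in log2 signal from fertilized cells, with its moderated SE, for each of the 60 chaperone genes in androgenetic and in parthenogenetic cells. Both comparisons use the same 3 fertilized arrays. The largest fitted androgenetic differences lie at Dnajc6 (-2.24), Dnajb13 (-2.22) and Cct6b (-2.16), of which the last 2 were not detected on androgenetic arrays, and the largest fitted parthenogenetic one at Dnajb13 (1.58).

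TRiC, the cytosolic chaperonin ring of 8 different subunits, was represented by 9 genes, because Cct6b is a variant of the Cct6 subunit known from the testis. In androgenetic against fertilized cells 5 of 9 were lower (55.6%) and 0 higher (median -0.41). Among all named genes 39.3% were lower and 35.4% higher. In androgenetic against parthenogenetic cells 3 of 9 were lower (33.3%, against 37.1% of all named genes) and 0 higher (median -0.13). Cct3 read 13.51, 13.61 and 13.57 on androgenetic, 13.90 and 14.00 on parthenogenetic and 13.99, 13.95 and 14.32 on fertilized arrays. Cct4 read 13.92, 14.05 and 13.97, then 14.14 and 14.27, then 14.40, 14.28 and 14.56 in the same order, and Cct6a 14.24, 14.21 and 14.19, then 14.56 and 14.58, then 14.54, 14.45 and 14.75. In all 3 the androgenetic arrays lay below all others, by differences from fertilized cells of -0.53 ± 0.11, -0.43 ± 0.091 and -0.37 ± 0.089 SE (adjusted p = 0.00176, 0.00219 and 0.00493). A second Cct3 probe differed by -0.51.

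Cct6b was detected on no androgenetic array, where it read 5.45, 5.54 and 5.89, against 7.12 and 7.25 on parthenogenetic and 7.63, 7.87 and 7.87 on fertilized arrays. It was at least 2.16-fold lower in androgenetic than in fertilized cells. It passed the detection filter through the other groups alone, which favours an androgenetic decrease. It was also the only TRiC gene called in parthenogenetic against fertilized cells, at -0.61 ± 0.14 (adjusted p = 0.00948, lost without parthenogenetic replicate 1 at an adjusted p of 0.0724). Cct7 read 7.73, 7.88 and 7.72 on androgenetic, 7.78 and 7.81 on parthenogenetic and 7.86, 8.23 and 8.66 on fertilized arrays, and was called lower in androgenetic cells at -0.48 ± 0.17 (adjusted p = 0.0323). Its groups overlapped, and the call was lost without androgenetic replicate 1 or 3 or fertilized replicate 2 or 3 (adjusted p up to 0.0858) and with median centring.

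The other TRiC genes were not called against fertilized cells. Tcp1 read 13.91, 13.87 and 13.82 on androgenetic, 14.02 and 13.96 on parthenogenetic and 13.92, 13.82 and 14.42 on fertilized arrays. Cct8 read 13.37, 13.43 and 13.43, then 13.63 and 13.44, then 13.30, 13.12 and 13.66 in that order. For both genes the fertilized arrays spanned the androgenetic ones, with differences of -0.19 ± 0.14 and 0.04 ± 0.13 SE. Cct2 read 7.81, 7.64 and 8.03, then 8.07 and 7.51, then 7.79, 7.64 and 8.10, and Cct5 7.31, 7.13 and 7.47, then 7.51 and 7.27, then 7.37, 7.66 and 8.11. Their groups overlapped too, with androgenetic differences of -0.02 ± 0.18 and -0.41 ± 0.18 (adjusted p = 0.0689 for Cct5).

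One fertilized array stood out for these genes. All 9 TRiC genes and both HSP90 genes were highest among fertilized arrays on replicate 3, which held the highest fertilized value for 37% of all named genes and 45% of the chaperones. On that array the TRiC genes lay a median of 0.38 above the mean of the other fertilized arrays, against -0.0090 for all named genes. Without fertilized replicate 3, 4 of 9 TRiC genes were lower in androgenetic cells and their median was -0.28 in place of -0.41. Cct3, Cct4 and Cct6a kept their calls, at -0.41, -0.36 and -0.28. So did Cct6b, which was not detected on androgenetic arrays and passed the filter through the other groups.

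**Figure D4:**
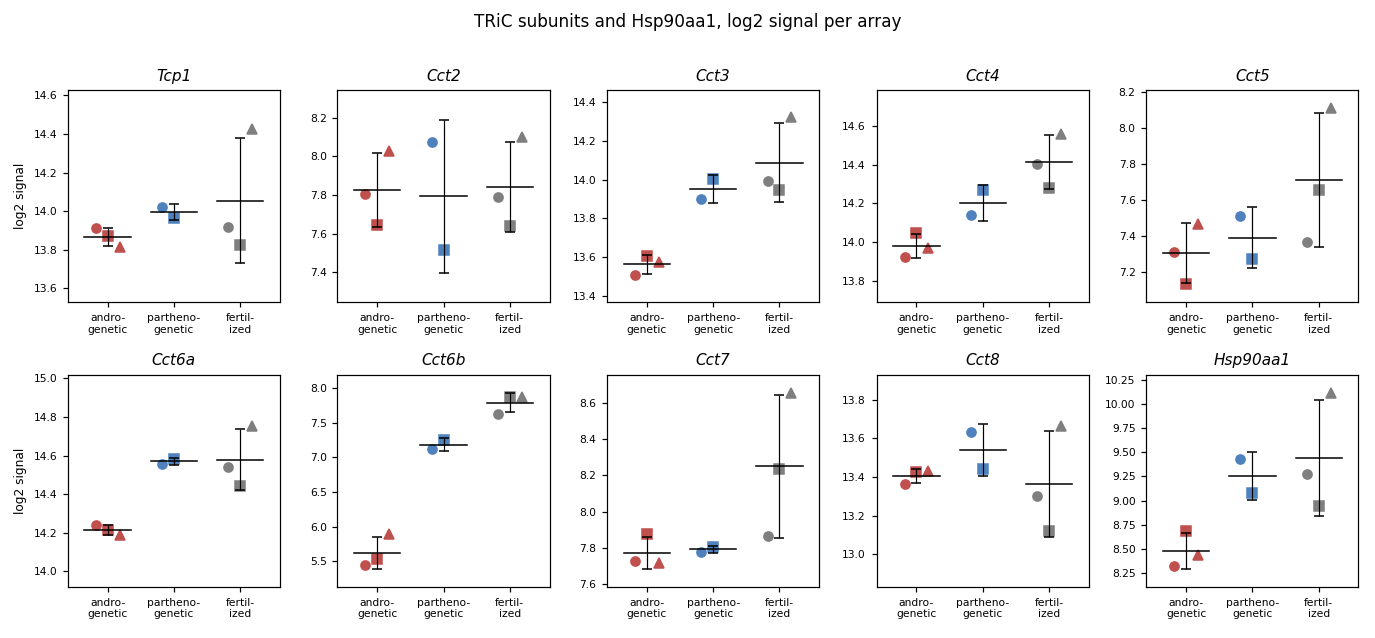
Log2 signal per array of the 9 TRiC genes and Hsp90aa1 in androgenetic, parthenogenetic and fertilized ES cells. Circles, squares and triangles are replicates 1, 2 and 3, the line is the mean and the bar the SD, and the triangle of fertilized replicate 3 is the highest fertilized point in every panel.

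Prefoldin, which passes actin and tubulin chains to TRiC, was measured by 3 of its genes with no common direction. Pfdn1 read 7.06, 7.04 and 6.96 on androgenetic arrays, was detected on no other array, and was at least 1.25-fold higher in androgenetic than in fertilized cells. It too passed the filter through androgenetic arrays alone. Pfdn2 read 13.18, 13.18 and 13.21 on androgenetic, 13.52 and 13.73 on parthenogenetic and 13.71, 13.74 and 13.20 on fertilized arrays, where replicate 3 lay within the androgenetic range. It was called lower in androgenetic than in fertilized cells, at -0.36 ± 0.14 SE (adjusted p = 0.0445), and the call was lost in 7 of the 8 fits that left out 1 array, all but that without fertilized replicate 3 (adjusted p up to 0.144). Pfdn4 read 13.02, 13.06 and 12.87, then 12.91 and 12.89, then 13.10, 13.07 and 12.75, with overlapping groups, and was not called (0.01 ± 0.11). No prefoldin gene was called in parthenogenetic against fertilized cells.

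Of 6 ER chaperone genes, Dnajc3 and Calr were higher and Hsp90b1 was lower in androgenetic than in fertilized cells, Hspa5 and Dnajb9 were not called, and Dnajc10 had probes with opposite calls. The list may not hold every ER chaperone, and Dnajb12, counted outside it, was lower at -0.50 (adjusted p = 0.00271). Dnajc3, a J-domain partner of the ER HSP70 that is known as an inhibitor of the kinase PERK, read 9.70, 9.62 and 9.66 on androgenetic arrays, 8.69 and 8.91 on parthenogenetic and 8.89, 8.95 and 8.84 on fertilized arrays. Androgenetic arrays lay above all others. Dnajc3 was 1.70-fold higher in androgenetic than in fertilized cells (0.76 ± 0.082 SE, adjusted p = 3.13e-05). Calr, the lectin chaperone calreticulin, read 11.16, 11.02 and 11.24 on androgenetic, 10.64 and 10.75 on parthenogenetic and 10.91, 10.42 and 10.64 on fertilized arrays. Its androgenetic arrays were again the highest, at 1.40-fold (0.48 ± 0.13, adjusted p = 0.00706).

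Hsp90b1, the ER form of HSP90, read 13.31, 13.14 and 13.15 on androgenetic, 13.33 and 13.44 on parthenogenetic and 13.50, 13.35 and 13.69 on fertilized arrays. Androgenetic arrays lay below the others, parthenogenetic and fertilized arrays overlapped, and the androgenetic difference of -0.32 ± 0.10 SE from fertilized cells (adjusted p = 0.0203) was no longer called without androgenetic replicate 2 or 3 (adjusted p up to 0.0706). Dnajc10, an ER disulfide reductase, read 11.61, 11.63 and 11.62 on androgenetic, 11.57 and 11.64 on parthenogenetic and 11.86, 11.89 and 11.98 on fertilized arrays. Both uniparental kinds lay below the fertilized arrays, by -0.29 ± 0.069 and -0.30 ± 0.077 (adjusted p = 0.00444 and 0.0142). A dimmer Dnajc10 probe, detected on 5 arrays, had the opposite sign in androgenetic cells, at 0.88 ± 0.17 (adjusted p = 0.00152), so no direction is given for the gene there. The parthenogenetic call was lost without parthenogenetic replicate 1 (adjusted p = 0.102).

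Hspa5, the ER HSP70 known as BiP, was measured by a probe near the detection floor, which lay at log2 signals of 6.60 to 6.85 over the arrays. It read 6.76, 6.83 and 7.15 on androgenetic, 6.99 and 6.51 on parthenogenetic and 7.09, 6.62 and 7.93 on fertilized arrays, and was detected on 3, 1 and 2 of them. No difference was called (-0.30 ± 0.30 and -0.47 ± 0.33 SE). Dnajb9, a BiP partner in ER-associated degradation, read 9.54, 9.59 and 9.59 on androgenetic, 9.26 and 9.27 on parthenogenetic and 9.55, 9.47 and 9.97 on fertilized arrays. It was called lower in parthenogenetic cells at -0.40 ± 0.14 (adjusted p = 0.0479), a call lost in 6 of the 8 fits that left out 1 array, all but those without fertilized replicate 2 or 3 (adjusted p up to 0.166).

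The 4 genes whose promoters with the ER stress element are printed above thus had unlike values in androgenetic against fertilized cells, 0.76 for Dnajc3, 0.48 for Calr, -0.32 for Hsp90b1 and -0.30, not called, for Hspa5. None of the 4 was called in parthenogenetic against fertilized cells. Of the 11 genes with the shorter heat shock element, 5 were called higher, 2 lower and 4 not called in androgenetic against fertilized cells, by the probe used for each (35.4% higher and 39.3% lower among all named genes). The 5 include Dnajb6, whose probes had opposite calls there, and Dnaja4, which passed the detection filter through androgenetic arrays alone. In parthenogenetic against fertilized cells 5 were called higher, 0 lower and 6 not called (20.3% in each direction among all named genes). Of these 5, the calls for Hspb1, Hspd1 and Hspe1 were each lost without parthenogenetic replicate 1 (adjusted p up to 0.128, 0.113 and 0.267 over the arrays left out), and Hspd1 and Hspe1 share 1 stretch with the element.

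Mitochondrial chaperones on the list used here showed 2 patterns. Dnajc19, a J protein of the import motor, read 12.72, 12.71 and 12.68 on androgenetic, 13.59 and 13.59 on parthenogenetic and 13.73, 13.82 and 13.32 on fertilized arrays. Dnaja3, the J-domain partner of mitochondrial HSP70, read 11.94, 11.92 and 11.91, then 12.41 and 12.44, then 12.51, 12.51 and 12.50 in the same order. Androgenetic arrays lay below all others for both genes, which were 1.89-fold and 1.50-fold lower than in fertilized cells (-0.92 ± 0.12 and -0.58 ± 0.063 SE, adjusted p = 0.000132 and 3.56e-05). Neither was called in parthenogenetic cells (-0.04 and -0.08).

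Hspd1 and Hspe1, whose shared promoter is printed above, were higher in parthenogenetic cells. Hspd1, mitochondrial HSP60, read 13.96, 13.96 and 14.08 on androgenetic, 14.42 and 14.33 on parthenogenetic and 13.95, 13.72 and 14.13 on fertilized arrays. Hspe1, its HSP10 lid, read 11.96, 11.84 and 11.89, then 12.47 and 12.10, then 11.83, 11.74 and 12.04. The parthenogenetic arrays were the highest for both genes, and androgenetic and fertilized arrays overlapped. The differences from fertilized cells were 0.44 ± 0.12 and 0.41 ± 0.13 SE (1.36-fold and 1.33-fold, adjusted p = 0.0196 and 0.0343), and in androgenetic cells 0.07 ± 0.11 and 0.02 ± 0.12, not called. The call for Hspd1 was lost without either parthenogenetic array (adjusted p up to 0.113) and with only the 2 groups compared, and that for Hspe1 without any 1 of the androgenetic arrays, parthenogenetic replicate 1 or fertilized replicate 1 or 2 (adjusted p up to 0.267). The 2 genes share a promoter and are not independent of each other.

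Hspa9, mitochondrial HSP70, read 14.85, 14.82 and 14.89 on androgenetic, 14.97 and 15.01 on parthenogenetic and 14.85, 14.80 and 15.18 on fertilized arrays. It was not called (-0.09 ± 0.10 and 0.05 ± 0.12 SE), although a dimmer probe was called lower in androgenetic cells at -0.35 (adjusted p = 0.00679). Dnajc15, another J protein of the import motor, read 11.21, 11.31 and 11.40, then 11.76 and 11.71, then 11.62, 11.38 and 11.12, and was not called in either comparison (-0.06 ± 0.12 and 0.36 ± 0.14, adjusted p = 0.660 and 0.0665).

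**Figure D5:**
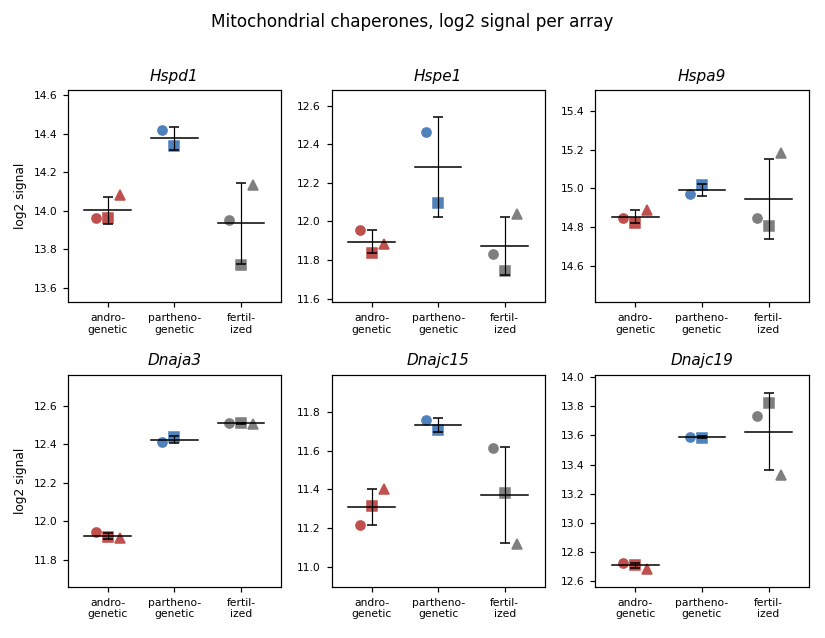
Log2 signal per array of the listed mitochondrial chaperone genes in androgenetic, parthenogenetic and fertilized ES cells. Circles, squares and triangles are replicates 1, 2 and 3, the line is the mean and the bar the SD, and the androgenetic points are lowest for Dnajc19 and Dnaja3 and the parthenogenetic ones highest for Hspd1 and Hspe1.

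The 2 uniparental kinds were also compared directly, as a test of the difference between their chaperone levels. A total of 41 of 60 genes were called (68.3%, against 71.1% of all named genes), 21 higher and 20 lower in androgenetic cells (34% and 37.1% of all named genes), of which 7 higher and 4 lower ones reached 2-fold (12.7% and 14.6%, or 6 and 3 genes with undetected ones at their bound). Arrays of the 2 groups did not overlap for 51 of the 60 genes (86.1% of all named genes). The count of lower genes was 13 without androgenetic replicate 2, 13 without parthenogenetic replicate 1 and 11 without parthenogenetic replicate 2. All 6 BAG genes were higher, Bag2 among them, which was detected on androgenetic arrays alone, and the call for Bag1 (0.26 ± 0.082 SE) was lost without androgenetic replicate 1 or 3 or either parthenogenetic array (adjusted p up to 0.0820). Hspa2 was 2.89-fold higher (1.53 ± 0.083, adjusted p = 5.25e-07), Bag3 2.83-fold (1.50 ± 0.079) and Hspb2 2.47-fold (1.30 ± 0.24), while Bag2, Dnajc12 and Dnaja4 were at least 2.68-fold, 2.41-fold and 1.26-fold higher.

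Dnajb13, at least 8.10-fold, and Dnajc6, 7.98-fold (-3.00 ± 0.13 SE), had the largest fitted decreases among chaperones in androgenetic against parthenogenetic cells. Hspb6 was 2.94-fold lower (-1.55 ± 0.11) and Cct6b at least 1.42-fold lower. Of 6 genes on the mitochondrial list 5 were lower (83.3%, against 37.1% of all named genes) and 0 higher (median -0.41). The 5 were Dnajc19 at -0.88, Dnaja3 at -0.50, Dnajc15 at -0.42, Hspe1 at -0.39 and Hspd1 at -0.37. A second, dimmer Hspd1 probe was not called (-0.29, adjusted p = 0.154). The list may not hold every mitochondrial chaperone, and Dnajc30, counted outside it, was higher at 0.61 (adjusted p = 0.000539). With median centring in place of quantile normalization 2 of the 6 were lower. The calls for Dnajc15, Hspe1 and Hspd1 were lost in 4, 3 and 4 of the 8 fits that left out 1 array (adjusted p up to 0.0973, 0.231 and 0.112). Those arrays were androgenetic replicates 1 and 2 and both parthenogenetic arrays for Dnajc15 and Hspd1, and androgenetic replicates 2 and 3 and parthenogenetic replicate 1 for Hspe1. Dnajc3 (0.86 ± 0.091) and Calr (0.45 ± 0.14) were higher among ER chaperones, the latter call being lost without androgenetic replicate 3 or parthenogenetic replicate 1 (adjusted p up to 0.105). Hsp90aa1 was called lower (-0.77 ± 0.30, adjusted p = 0.0435), a call lost in 6 of those 8 fits, all but those without fertilized replicate 2 or 3 (adjusted p up to 0.214).

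Genes that work with these chaperones were counted from lists of related factors. Of 21 measured HSP90 and HSP70 co-chaperone genes, 14 were lower and 4 higher in androgenetic than in fertilized cells (66.7% and 19%, against 39.3% and 35.4% of all named genes, median -0.37). Fkbp5, an immunophilin of HSP90 complexes, had the largest difference (-2.74 ± 0.073 SE, 6.67-fold lower), followed by Sil1, the nucleotide exchange factor of BiP (-1.93 ± 0.097), Ahsa2 (1.27, detected on 1 of 3 fertilized arrays) and Aarsd1 (-1.15). In parthenogenetic against fertilized cells 4 of the 21 were higher and 6 lower (19% and 28.6%, against 20.3% of all named genes in each direction). Of 8 mitochondrial proteostasis genes 5 were lower (62.5%) and 0 higher in androgenetic than in fertilized cells, with Trap1, the mitochondrial HSP90, at -1.36 ± 0.072, the presequence peptidase subunit Pmpcb at -0.83, Grpel2 at -0.59 and Clpx at -0.43.

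Of 17 measured genes of the unfolded protein response and ER folding 6 were higher and 7 lower in androgenetic than in fertilized cells, at 35.3% and 41.2% near the 35.4% and 39.3% of all named genes. The stress-induced Trib3 was at least 3.06-fold lower and Herpud1, of ER-associated degradation, 3.33-fold lower, Ddit3 (CHOP) was 2.68-fold lower and Derl2 2.34-fold higher. Of 10 tubulin folding and prefoldin-like genes 2 were higher and 5 lower (20% and 50%), among them Uri1 (-1.40), Arl2 (-1.25), Pdcl (-1.11) and Pdcl3, which was not detected on fertilized arrays and at least 1.14-fold higher. Of the heat shock factor list, Hsf2 was not called (0.01 ± 0.13) and Hsbp1, a binding protein of heat shock factor 1, was 2.11-fold higher (1.08 ± 0.095 SE, adjusted p = 8.74e-06). Hsf1 was not analysed here, nor were Hsp90ab1, Hspa1a, Hspa1b, Canx, Dnaja1 and Dnajb11.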

How the data were processed

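RNA of 8 samples was hybridised to Illumina BeadChips in 1 colour (1 array each), read with BeadStudio 3.1.3 per the submitters' processing notes. The authors deposited a non-normalized table with a linear intensity per probe and array for 25697 probes, and beside each intensity a detection p-value. They also deposited a table of log2 values for 12891 probes, used as an alternative only. Gene names came from the probe annotation, which covers probes of that log2 table alone, so genes detected in few samples can be missing.

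Background was estimated from the deposited detection p-values and signals were quantile normalized with an offset of 16 (neqc, limma 3.58.1, R 4.3.3), which compresses differences of dim probes. Probes that 2 or more arrays detected at p under 0.01 were kept (12300, of which 11262 were named), and the brightest probe stood for a gene. The model held a mean for each group over all 8 arrays (residual degrees of freedom 5, prior 3.51), with eBayes and Benjamini-Hochberg adjustment over kept probes, so comparisons share arrays and an estimate of spread. A fold against a group with no detected array is a lower bound, computed against the lowest signal at which probes were detected. The fit was also run on simulated data with the same spread in all groups, so that run does not cover the unequal spread given above.

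Per the rule for named genes, any chaperone may be named. Array values are given for the 6 largest increases and decreases per comparison without overlap and for members of the HSP, TRiC, prefoldin, ER and mitochondrial classes, and up to 4 genes per list of related factors are named, with opposite probes of a gene stated. The members and lists were chosen with earlier results of these data known. Replicate numbers were not used to pair the groups in the main fit. Residuals of same-numbered arrays correlated at -0.090 to 0.067. Residuals within groups of 2 or 3 arrays are tied to each other, so these values cannot show whether the arrays are paired. Alternatives were no background correction, median centring, offset 50, other filters, the mean of a gene's probes, the authors' values, a replicate block, only the 2 groups compared and leaving out each array. Protein sequences were not used here.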

Additional observations from a re-analysis of the deposited data

How the results depend on the processing

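The counts of chaperones called in androgenetic against fertilized cells stayed within 1.5 times under the alternatives tried, and their median, near 0, was 0.042 with median centring. Median centring gave 5 chaperones higher in parthenogenetic than in fertilized cells, 13 lower in androgenetic than in parthenogenetic cells and a median of 0.036 there, and Hsph1 turned to 0.011 (adjusted p = 0.921). That scaling moved the median of all named genes to 0.089, -0.056 and 0.15 in the 3 comparisons (from -0.051, -0.0058 and -0.029), and their split of higher against lower calls to 3389 against 2685, 1408 against 1875 and 3450 against 2338, from 2908 against 3232, 1665 against 1669 and 2792 against 3053. The cause was not tested. With the 52 chaperones detected on all 8 arrays, 4 were lower in parthenogenetic cells, where fewer genes enter. With the replicate number as a block 4 were lower there, and it changed no other count by over 1.5 times. Same-numbered arrays of different groups also share their passage, so this block stands for passage as well. No other pairing of them is stated. With only the 2 groups compared 4 were higher and 4 lower. The mean of a gene's probes turned Dnajb6 to -0.18 (adjusted p = 0.0386) and Dnajc10 to 0.29 (adjusted p = 0.0256) in androgenetic against fertilized cells, where their probes had opposite calls. Leaving out 1 array gave 17 to 20 higher, 17 to 20 lower and a median of -0.11 to 0.039 in androgenetic against fertilized cells. In parthenogenetic against fertilized cells it gave 4 to 10 higher, 3 to 9 lower and -0.071 to -0.039, and in androgenetic against parthenogenetic cells 16 to 22 higher, 11 to 22 lower and -0.14 to -0.028. A group left with 1 parthenogenetic array is assumed to vary like the others. Signals near background limit Hspa5 and Dnajb4 and the genes undetected in a group.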
